A study of Mus musculus with 2 samples.

Results

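BK channels, the large-conductance potassium channels that open when the membrane depolarises and when intracellular calcium rises, were examined through 8 genes. They are Kcnma1, which encodes the pore-forming alpha subunit, Kcnmb1, Kcnmb2 and Kcnmb4, which encode auxiliary beta subunits, and Lrrc26, Lrrc38, Lrrc52 and Lrrc55, which encode the leucine-rich repeat proteins known as auxiliary gamma subunits. The members are the gene probes whose accession maps to 1 of these symbols. The arrays hold 13 such probes among 39429, and 10 of them, for 6 of the 8 genes, were above background and belong to the 21337 genes measured. Of these 21337, 15805 carry a symbol, and each of the others is an accession without a symbol, counted as a gene. Shares and ranks over all genes include them. The family was picked with the NOGGIN against control ratios of these arrays known. Its members' values are therefore a description and carry no test.

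The tissue was the ureter of wildtype NMRI mouse embryos of mixed sex, dissected at E12.5 and kept for 18 h on transwell membranes. The treated cultures had 10 µg/ml NOGGIN in the medium, an extracellular antagonist that traps bone morphogenetic proteins before they reach their receptors, and the controls had medium alone. Each of 2 two-colour Agilent arrays carried RNA of a control and of a NOGGIN culture, with the dyes exchanged between the arrays, giving 4 labelled RNA samples in all. The labels do not say how many ureters were pooled, or whether the cultures and the RNA of the 2 arrays were independent. The p-values rest on the spread between these samples, pooled in part over all genes, and that spread may be technical.

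An alpha subunit is enough to form a BK channel, and the auxiliary subunits set how it responds. The beta subunit of Kcnmb1 is known from smooth muscle, where it raises the channel's sensitivity to calcium. Channels with it open when calcium is released close to the membrane, and the outflow of potassium limits contraction. Gamma subunits shift opening towards more negative voltages, each to its own degree. In the E12.5 ureter an inner epithelium is surrounded by mesenchyme whose inner layer later becomes the smooth muscle of peristalsis.

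RefSeq promoters (mouse build GRCm38.p6, 250 bases before to 50 after the annotated start) were found for all 8 genes. Those of Lrrc55, Kcnmb1 and Kcnma1 are shown because these genes had the largest difference, the second largest and the pore subunit common to all BK channels. Each is written 5′ to 3′ on the gene's strand, with matches to the E-box CANNTG, the recognition sequence of basic helix-loop-helix factors, in capitals. The Lrrc55 promoter lies at chr2:85198701-85199000 on the minus strand, that of Kcnmb1 at chr11:33962763-33963062 on the plus strand and that of Kcnma1 at chr14:24004156-24004455 on the minus strand.
Lrrc55: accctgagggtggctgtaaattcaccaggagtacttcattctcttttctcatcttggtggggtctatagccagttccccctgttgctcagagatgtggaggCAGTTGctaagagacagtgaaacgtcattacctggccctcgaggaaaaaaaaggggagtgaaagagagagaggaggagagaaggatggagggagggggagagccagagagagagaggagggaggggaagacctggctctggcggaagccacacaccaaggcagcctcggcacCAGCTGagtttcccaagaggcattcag
Kcnmb1: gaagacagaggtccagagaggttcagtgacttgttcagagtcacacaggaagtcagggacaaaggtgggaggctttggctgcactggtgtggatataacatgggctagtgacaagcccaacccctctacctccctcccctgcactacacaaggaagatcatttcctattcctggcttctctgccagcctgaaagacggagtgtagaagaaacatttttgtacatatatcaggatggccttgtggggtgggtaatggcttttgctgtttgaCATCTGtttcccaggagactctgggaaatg
Kcnma1: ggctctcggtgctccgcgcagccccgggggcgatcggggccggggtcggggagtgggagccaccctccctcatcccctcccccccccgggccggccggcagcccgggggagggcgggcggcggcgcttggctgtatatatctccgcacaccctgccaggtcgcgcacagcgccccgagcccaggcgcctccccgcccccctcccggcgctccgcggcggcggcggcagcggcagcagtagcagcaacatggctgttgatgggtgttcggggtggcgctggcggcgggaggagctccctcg

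The promoters of the members were unlike in base composition. In the Lrrc55 window 54.7% of bases were G or C and there were 4 CG pairs, and 31.4% of the 32851 promoters in the table have fewer. The Kcnmb1 window had 49.7% G or C and 1 CG pair, a number that 5.4% of promoters fall below. The Kcnma1 window had 78.0% and 36 CG pairs, with 93.8% of promoters below it, and that of Kcnmb4 79.0% and 48 pairs, with 98.8% below. The median promoter had 52.7% and 7 pairs. In CG pairs the remaining members lay between Kcnmb1 and Kcnma1, with 3 for Lrrc26, 6 for Lrrc52, 9 for Kcnmb2 and 12 for Lrrc38.

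CANNTG, which reads the same way on both strands in this form, was matched 2 times in Lrrc55, as CAGTTG and CAGCTG, and 1 time in Kcnmb1, as CATCTG. Kcnma1, Kcnmb2 and Kcnmb4 had no match, Lrrc26 had 2, and Lrrc38 and Lrrc52 had 1 each. Such a match occurs in 72.31% of all promoters of this length. CAGAC, a SMAD recognition sequence searched on both strands, is in 49.59% of them and was matched 3 times in Kcnmb2 and 1 time each in Lrrc26 and Lrrc38. The CArG box, bound by serum response factor, is in 1.63% of promoters and was matched in no member. These are matches of letters in a 300-base window only.

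All ratios below are log2 of the NOGGIN-labelled over the control-labelled channel after normalisation, with the mean and SD of the arrays (n = 2). A gene is called higher or lower by where the NOGGIN channel lies, as the dyes in the labels assign it. The authors' deposited table, which lists a signed fold change per probe, has the opposite sign. Its values had a correlation of -0.983 and -0.984 with the ratios of the same array over 17433 probes. Which direction is right is not settled by the files. Turning it exchanges "higher" and "lower" throughout and leaves every size as it is. The tissue was measured as a whole, so fewer cells of a type and less RNA per cell cannot be told apart.

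Lrrc55 was 4.33-fold lower, and Kcnmb1 was 1.64-fold lower. Kcnma1 was lower on every probe, by amounts that differed between probes, and Kcnmb4 and Lrrc38 lay near a log2 ratio of 0. Kcnmb2 went in opposite directions on the arrays, and Lrrc26 and Lrrc52 were not above background. Of the 6 measured members 2 differed by 1.5-fold or more with 1 sign on both arrays, as 2.9% of all genes did. Both were lower (1.55% of all genes) and 0 were higher (1.35%). At 2-fold it was 1 member, beside 0.492% of all genes. The limma fit over all genes used these same ratios, so for members picked on them it is no test. At an adjusted p of 0.05 it put Lrrc55 and Kcnmb1 past the threshold as lower (4.03% of genes) and 0 members as higher (3.95% of genes). Since the family was picked on this contrast, nothing is read from these counts.

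**Figure D1:**
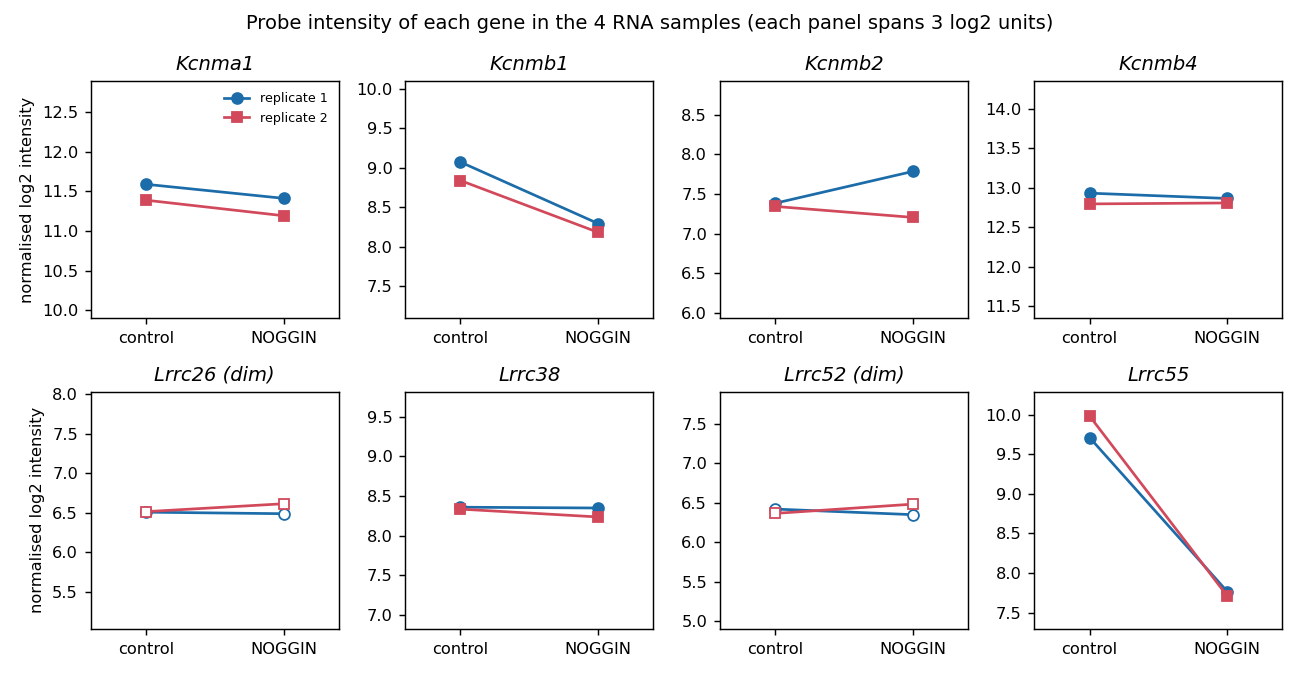
Normalised log2 intensity of each gene's probe in the 4 RNA samples, with a line joining the control and the NOGGIN channel of an array; every panel spans the same log2 range, and open symbols mark probes not above background. Lrrc55 lies at 9.71 and 9.99 in the controls and at 7.76 and 7.71 with NOGGIN, Kcnmb1 at 9.07 and 8.84 and at 8.29 and 8.18, while the lines of Kcnmb4 and Lrrc38 are almost flat and those of Kcnmb2 diverge.

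Among the gamma subunit genes, Lrrc55 stood apart. Its only probe (A_52_P395280, for NM_001033346) had a normalised log2 intensity of 9.71 in control 1 and 9.99 in control 2, against 7.76 in NOGGIN 1 and 7.71 in NOGGIN 2. Both controls were thus above both NOGGIN samples, and the NOGGIN samples were close to each other. The log2 ratio was -1.95 on replicate 1 and -2.28 on replicate 2, or -2.11 ± 0.23. The difference was larger than its SD over the arrays, which is a description, since the family was picked on these ratios. Of all 21337 genes, 9 had a lower mean ratio.

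The 4 spots of the Lrrc55 probe gave the same picture on each array. They ranged from -1.98 to -1.89 on replicate 1 and from -2.37 to -2.24 on replicate 2, so the spots of an array were closer to each other than the arrays were. Before correction the median signal of the spots was 1035 in control 1, where the local background was 121.5, and 828 in control 2, where it was 24. In NOGGIN 1 it was 139 over a background of 24, and in NOGGIN 2 it was 279 over 117. All 4 spots were well above background in every channel, so the ratio is measured on both sides and is no bound. Its size depended on the background correction. The mean log2 ratio was -2.42 with the offset of that correction set to 0, -2.62 with the local background subtracted and -2.17 with no correction. The authors' deposited table gives 5.55 and 7.36 for this probe, a larger fold with the opposite sign.

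Of the other gamma subunit genes only Lrrc38 was measured, and its difference lay within its spread. Lrrc38 (NM_001162983) had 8.36 in control 1 and 8.33 in control 2, and 8.35 in NOGGIN 1 and 8.23 in NOGGIN 2. Its controls and NOGGIN samples overlapped, with ratios of -0.010 and -0.099 and a mean of -0.055 ± 0.063. The spots of its probe lay on both sides of 0 on replicate 1, from -0.15 to 0.11, and from -0.20 to -0.0055 on replicate 2.

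Lrrc26, known from secretory epithelia, and Lrrc52, known from testis, where it joins the sperm potassium channel of Kcnu1, were not well above background. None of their spots (0 of 4) was so in any of the 4 channels. The median signal of the Lrrc26 spots was 135 over a local background of 120.5 in control 1 and 138 over 115 in NOGGIN 2, both read in red, and 40.5 over 23.5 in control 2 and 38.0 over 23 in NOGGIN 1, both read in green. For Lrrc52 the signals were 124 over 120 in control 1, 33.7 over 24.5 in control 2, 32.1 over 24 in NOGGIN 1 and 124 over 113 in NOGGIN 2. These signals followed the dye, and no fold is given for either gene.

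Of the beta subunit genes, Kcnmb1 was the one with a difference on both arrays. Its only probe (A_66_P131851, for NM_031169) had 9.07 in control 1 and 8.84 in control 2, and 8.29 in NOGGIN 1 and 8.18 in NOGGIN 2. Both controls lay above both NOGGIN samples. The log2 ratio was -0.78 on replicate 1 and -0.66 on replicate 2, or -0.72 ± 0.086. This size is beyond the SD over the arrays, again as a description only. The spots ranged from -0.85 to -0.67 and from -0.76 to -0.59, and the ranges of the arrays overlapped. The deposited table gives 1.93 and 1.84, again with the opposite sign, and 322 of the genes measured had a lower mean than Kcnmb1.

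Kcnmb4, whose product is the main beta subunit of neurons and slows channel activation, showed no difference beyond the spread. Its brighter probe had 12.93 in control 1 and 12.80 in control 2, and 12.86 in NOGGIN 1 and 12.81 in NOGGIN 2. The samples of the conditions overlapped. The ratio was -0.067 on replicate 1 and 0.012 on replicate 2, or -0.028 ± 0.056. A second probe for the same transcript gave -0.017 and -0.077, or -0.047 ± 0.042.

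Kcnmb2, whose product inactivates the channel, was the member on which the arrays disagreed. Its probe had 7.38 in control 1 and 7.34 in control 2, and 7.79 in NOGGIN 1 and 7.20 in NOGGIN 2. The NOGGIN samples lay on either side of the controls. The ratio was 0.40 on replicate 1 and -0.14 on replicate 2, or 0.13 ± 0.38, so its mean was smaller than its SD. By colour the arrays agreed in sign after normalisation, with red over green at -0.40 and -0.14. Before correction the median signal was higher in red, at 227 over a background of 120 and 202 over 112. In green it was 141 over 22.5 and 104 over 24. A part of the dye in this ratio was not tested. The spots within an array lay close together, from 0.35 to 0.44 and from -0.23 to 0.0028. A second Kcnmb2 probe had 0 of 4 spots well above background in every channel.

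**Figure D2:**
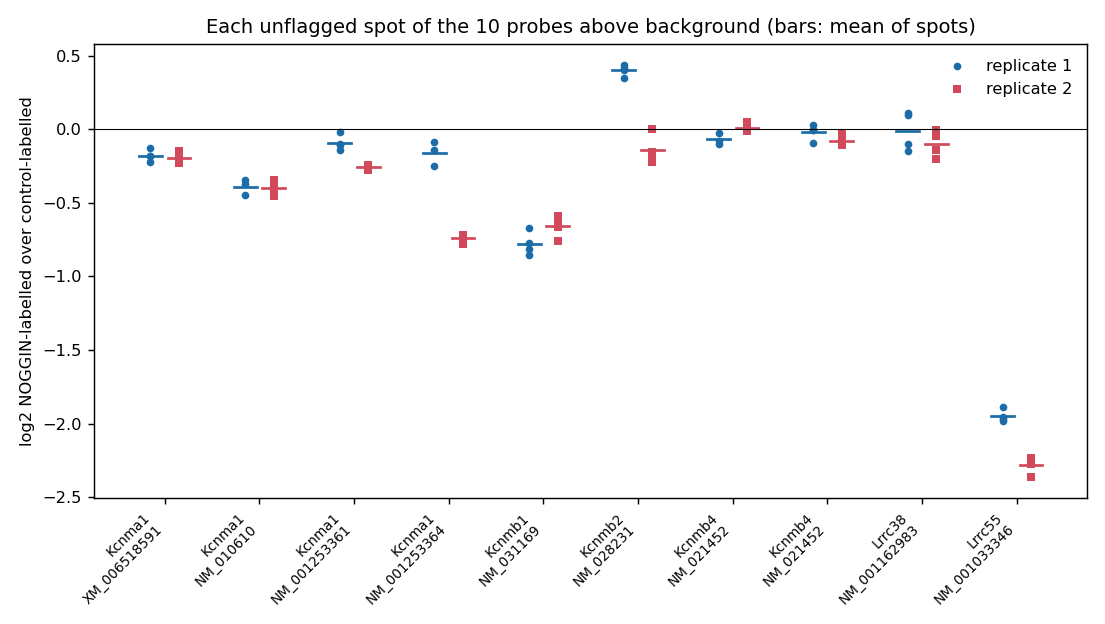
Log2 ratio of NOGGIN-labelled over control-labelled channel for each spot not left out as an outlier, for the 10 probes above background, with a bar at the mean of an array's spots. The spots of Lrrc55 lie between -2.37 and -1.89, those of Kcnmb1 between -0.85 and -0.59, the probe of Kcnma1 for NM_001253364 differs between the arrays, and Kcnmb2 lies on opposite sides of 0.

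Kcnma1, the pore gene, had 4 probes, all above background in every channel and all with negative ratios on both arrays. The brightest (A_51_P274073, for XM_006518591) had 11.59 in control 1 and 11.39 in control 2, and 11.41 in NOGGIN 1 and 11.19 in NOGGIN 2. On each array the control was the higher of the pair, though NOGGIN 1 lay above control 2. The ratio was -0.18 and -0.20, or -0.19 ± 0.013, which is 1.14-fold. The probe for NM_010610 gave -0.39 and -0.40, or -0.39 ± 0.0063, and that for NM_001253361 gave -0.091 and -0.26, or -0.17 ± 0.12.

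The Kcnma1 probe for NM_001253364 was the least even. It had 10.54 in control 1 and 10.38 in NOGGIN 1, a ratio of -0.16, and 10.73 in control 2 and 9.99 in NOGGIN 2, a ratio of -0.74, so its mean was -0.45 ± 0.41. Its spots did not bridge that gap, with -0.25 to -0.089 on replicate 1 and -0.78 to -0.72 on replicate 2. With the mean of the 4 probes in place of the brightest, the ratio of Kcnma1 was -0.30 in place of -0.19, which is a shift of more than 1.5 times. The probes lie on different transcript accessions of 1 gene and share the RNA of the same cultures, so they are no replicates.

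Ordered by the mean ratio, Lrrc55 at -2.11 came first, then Kcnmb1 at -0.72, Kcnma1 at -0.19, Lrrc38 at -0.055, Kcnmb4 at -0.028 and Kcnmb2 at 0.13. By these probes the array values of Lrrc55 overlapped those of no other member, and neither did those of Kcnmb1. The uneven Kcnma1 probe, at -0.74 on replicate 2, did reach the range of Kcnmb1. The values of the brightest Kcnma1 probe, -0.20 and -0.18, lay below all those of Kcnmb4, Lrrc38 and Kcnmb2. The values of Lrrc38 and Kcnmb4 overlapped each other and lay within the range of Kcnmb2, so these 3 have no order beyond their spread. The pore gene and the gene of its smooth muscle beta subunit differed in the size of the ratio by these probes, by 0.60 on replicate 1 and 0.46 on replicate 2.

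**Figure D3:**
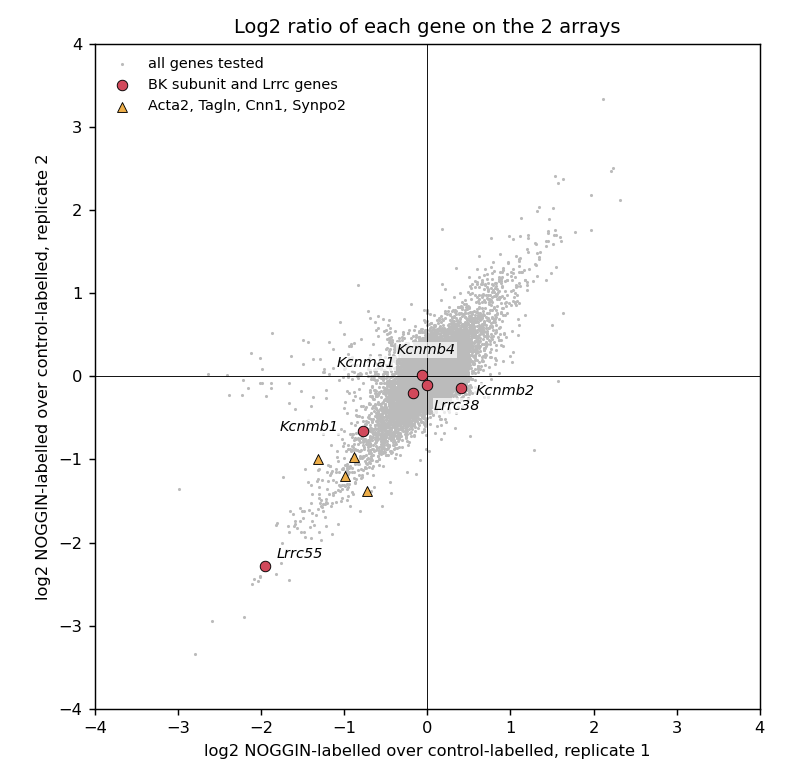
Log2 ratio of each of the 21337 genes on replicate 1 (x axis) and replicate 2 (y axis), in grey, with the 6 measured members as red circles and 4 smooth muscle markers as triangles. Lrrc55 lies at the lower left end of the cloud, and Kcnmb2 to the right of the vertical line and below the horizontal one. Kcnmb1, at a mean of -0.72, lies nearer the centre than these 4 markers, which had the largest ratios of the 10 in their list. The median of that list was -0.70.

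The genes whose pair of ratios was most like that of Lrrc55 were found by the Euclidean distance over the 2 array ratios, among measured genes with a symbol that does not look predicted. They were Prmt8, an arginine methyltransferase gene, at a distance of 0.14, Lrig1, which encodes a leucine-rich repeat membrane protein that restrains growth factor receptors, at 0.15, and Thbd, the thrombomodulin gene, at 0.16. Osr2, a zinc finger factor gene, followed at 0.19 and Tmem132c at 0.20. Their mean ratios were -2.21, -2.22, -2.10, -2.01 and -2.25. With 2 arrays this says only that the sizes were alike.

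Smooth muscle markers were lower beside Kcnmb1. Of 10 measured, 6 were lower in limma at an adjusted p of 0.05, 0 were higher and 4 did not pass, with a median of -0.70 against 0.00083 over all genes. The median was -0.59 on replicate 1 and -0.67 on replicate 2. Acta2, the smooth muscle actin gene, was lower at -1.16 ± 0.23 (adjusted p = 0.00702, limma), Tagln, the transgelin gene, at -1.09 ± 0.14 (adjusted p = 0.00565), and Cnn1, the calponin gene, at -0.93 ± 0.061 (adjusted p = 0.00596). Synpo2, an actin-associated gene, was lower at -1.05 ± 0.47 (adjusted p = 0.0261), with other probes at -0.33 and -0.30.

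Not every smooth muscle marker passed. Myocd, the coactivator that drives contractile genes, gave 0.15 ± 0.038 (adjusted p = 0.294, limma) and Mylk gave 0.25 ± 0.038 (adjusted p = 0.125), both positive. Des gave -0.32 ± 0.011 (adjusted p = 0.0650) and Smtn -0.16 ± 0.038 (adjusted p = 0.263), with its other probe at -0.25. Lmod1 was among the 6 lower genes, but its NOGGIN channels were not well above background. The mean log2 intensity over the list was 12.47 in control 1 and 12.41 in control 2, and 11.93 in NOGGIN 1 and 11.81 in NOGGIN 2. The part of these markers in the ratios of Kcnmb1 and Lrrc55 was not tested.

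Lists of markers of other cells had medians nearer to 0, though single members differed by more. Of 10 urothelium markers 1 was higher (Upk2) and 0 lower, with a median of 0.15. The count of higher urothelium markers ran from 0 to 2 over the forms of the processing. Of 10 ureteric mesenchyme markers 3 were higher and 2 lower, with 5 not past the threshold. Their median of -0.022 covers large ratios in both directions. Sox9 was higher at 2.22 ± 0.13, a larger size than that of Lrrc55 (adjusted p = 0.00338, limma), Tbx18 at 1.25 ± 0.27 (adjusted p = 0.00702) and Tcf21 at 0.62 ± 0.14 (adjusted p = 0.0189), while Bmp4 was lower at -1.30 ± 0.25 (adjusted p = 0.00616), as was Ptch1. All genes of both lists, which mark the labelled tissue, were above background in at least 1 condition. Of 10 neuron and neural crest markers 1 was higher (Stmn2) and 1 lower (Dbh), with a median of 0.097. In 6 of 13 other forms of the processing 0 genes of this list were lower. Of 6 endothelium markers 0 passed, with a median of 0.18. Of 6 measured kidney markers 0 were higher and 2 lower (Foxd1, Wnt11), with a median of 0.055, while Nphs1 and Umod were not above background. Of 5 macrophage and blood markers 0 passed, with a median of -0.074. The arrays differed for this list, with medians of -0.25 on replicate 1 and 0.035 on replicate 2. Adgre1 was the least even, at -0.92 and 0.37. The part of all these markers in the members' ratios was not tested either.

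Genes that handle the calcium which opens BK channels were mostly not separated from 0. Of 26 such genes 22 were measured, of which 3 were lower, 1 was higher and 18 did not pass, with a median of -0.15. Cacna1c, the pore gene of the L-type calcium channel of smooth muscle, was lower at -0.64 ± 0.057 (adjusted p = 0.0128, limma), and its other probe gave -0.28. Cacna1g, a T-type channel gene, was lower at -0.58 ± 0.11 (adjusted p = 0.0199), with its other probe at -0.42. Itpr3, an inositol trisphosphate receptor gene, was lower at -0.53 ± 0.065 (adjusted p = 0.0210).

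The higher member of the calcium list was Cacna2d1, an auxiliary calcium channel subunit gene, at 0.48 ± 0.16 (adjusted p = 0.0408, limma). Its other probe gave 0.12, and its call was lost in 5 of 13 other forms of the processing. The phospholamban gene Pln and the ryanodine receptor gene Ryr3 were among the 4 genes of the list that were not measured.

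Genes of cyclic nucleotide and kinase signalling to the channel went in both directions. Of 17 such genes 14 were measured, of which 2 were higher, 1 was lower and 11 did not pass, with a median of -0.027. Gucy1a2, a subunit gene of the nitric oxide receptor guanylyl cyclase, was higher at 0.74 ± 0.037 (adjusted p = 0.00884, limma), with other probes at 0.29 and 0.30. Prkg2, a cGMP-dependent kinase gene, was lower at -0.43 ± 0.13 (adjusted p = 0.0448). Camk2d, a calmodulin-dependent kinase gene, was higher at 0.36 ± 0.030 (adjusted p = 0.0499), but its other probes gave -0.011 and 0.011 and its call was lost in 7 of 13 other forms of the processing. Prkg2 lost its call in 4 of them.

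Of 10 genes for trafficking and partner proteins 2 were higher, 0 lower and 8 did not pass, with a median of 0.064. The higher genes encode the caveolins, membrane scaffold proteins with which BK channels associate. Cav1 was higher at 0.64 ± 0.19 (adjusted p = 0.0223, limma) and Cav2 at 0.45 ± 0.0092 (adjusted p = 0.0285), with other Cav2 probes at 0.13 and 0.35. Cav1 lost its call in 2 of 13 other forms of the processing and Cav2 in 4, and with the deposited table, its sign turned, 0 genes of this list passed as higher. Of the closest relatives of the subunit genes 2 of 4 were measured. Kcnu1 gave -0.17 ± 0.20 and Kcnt2 gave 0.26 ± 0.13, and neither passed (adjusted p = 0.358 and 0.142). Kcnmb3, the remaining beta subunit gene, and Kcnt1 were not above background. Over all 21337 genes, 7.97% passed in either direction.

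**Figure D4:**
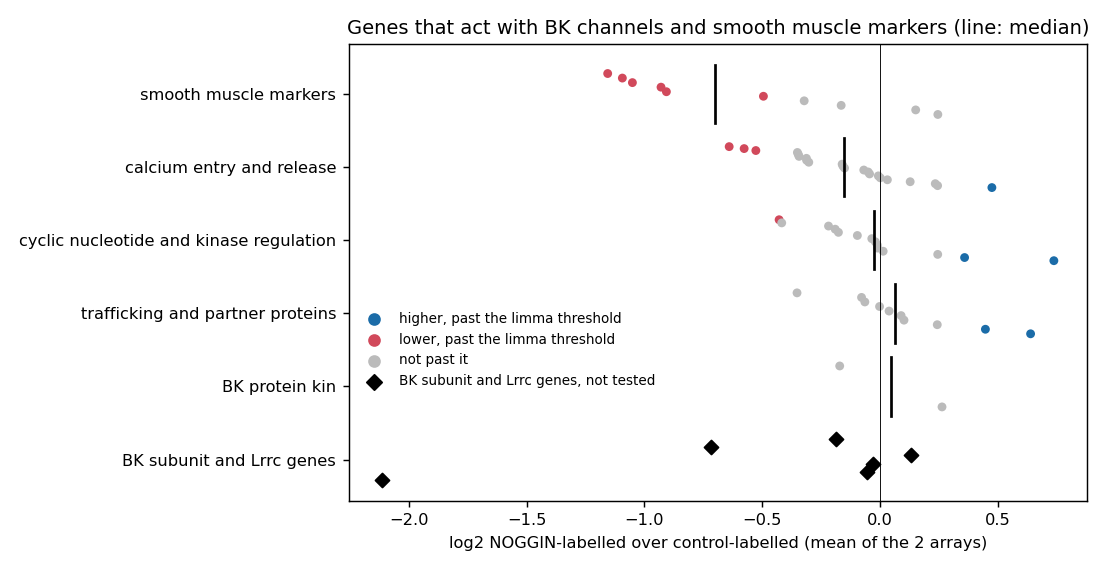
Mean log2 ratio over the arrays for each measured gene of the lists (points, coloured by the limma call at an adjusted p of 0.05), with a line at each list's median, and the 6 measured subunit genes below as diamonds without a test. The smooth muscle line lies at -0.70 and the calcium line at -0.15, and Lrrc55 lies to the left of every gene of these lists.

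**Figure D5:**
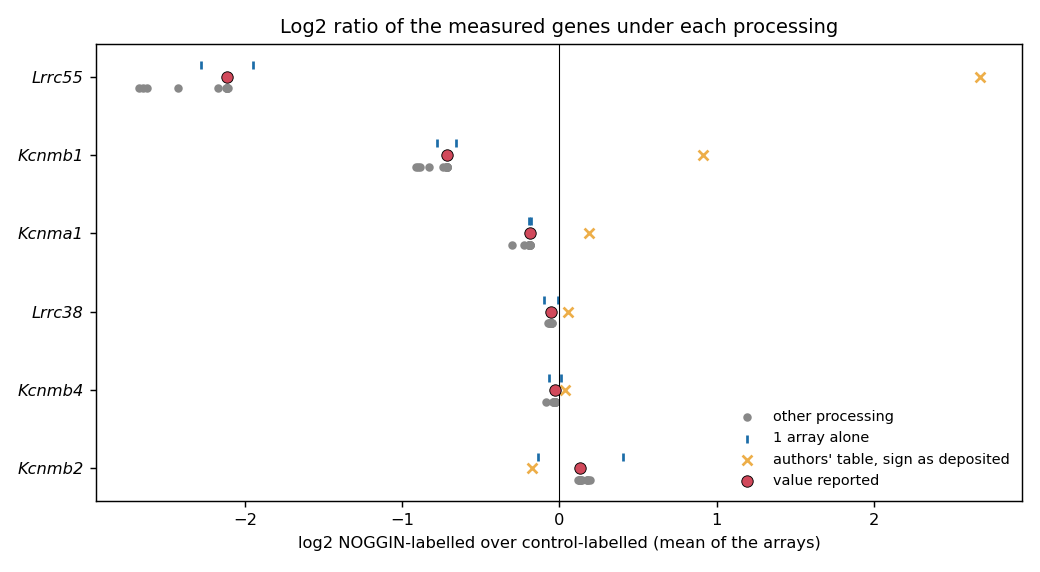
Mean log2 ratio of each measured member as reported (red), under other forms of the processing (grey), on each array alone (blue ticks) and in the authors' deposited table with its own sign (crosses). Lrrc55 runs from -2.68 to -1.95 and Kcnmb1 from -0.91 to -0.66 apart from the crosses, while Kcnmb2 lies on both sides of 0.

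The signals behind these ratios came from 157716 gene spots per array, 4 for each probe, of which 3.69% were left out as outliers on each array and 0 were saturated. The share of spots well above background was between 67.3% and 74.3% in the 4 channels. The median signal of gene spots was 521 and 532 in red and 288 and 311 in green. Precision is limited by there being only 2 arrays.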

How the data were processed

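RNA of control and NOGGIN cultures was measured on 2 two-colour arrays, each with a control and a NOGGIN channel, and the dyes in the labels gave each channel's condition. Linear spot intensities were read from the deposited scanner files, which the submitters' processing notes trace to Agilent Feature Extraction 10.7.3.1. The software's log10 ratio (red over green, per the file headers) was only checked against the processed signals. The authors' deposited table holds a signed fold change per probe and array, used as a score. Its normalisation, its direction and the genome build are not given in the sources used here.

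Background was corrected with normexp (offset 50) and each array normalised with loess, in which control, filler and outlier spots had weight 0. Spots were averaged, and levels in single channels were set on 1 scale with Aquantile. Probes were named by accession through RefSeq (GRCm38.p6), which named 28328 of 39429. An accession that mapped to no symbol was counted as a gene of its own. Probes had to be well above background, on each array, in a share of spots over 0.5 for the control or for the NOGGIN channel, and the brightest such probe stood for its gene. Ratios were tested against 0 with limma 3.58.1 in R 4.3.3 (lmFit and eBayes, two-sided, Benjamini-Hochberg over 21337 genes). There was 1 residual degree of freedom and 4.12 prior ones. The steps were also run on simulated data with independent noise on the arrays, which cannot show whether shared RNA affects the test. Nothing is read from that run here.

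The text names all members with their probes, up to 4 genes of each list by the size of the ratio among those past the threshold (with values for smooth muscle, ureteric mesenchyme and the lists of the channel's pathway), and the 5 genes most like Lrrc55. The 4 smooth muscle markers that did not pass are given with values. The other named markers were added by symbol only, and the genes of the closing section were chosen after their values were seen. Members and lists were chosen with earlier results of these data known. A planned comparison of the members' proteins was not made, since no protein sequences were used here. Alternatives were other background corrections, normalisations, filters, summaries of spots and probes, forms of the test, the deposited table and each array alone.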

Additional observations from a re-analysis of the deposited data

How the results depend on the processing

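With the authors' deposited table as deposited, every sign turned: Lrrc55 was at 2.68 and Kcnmb1 at 0.91. Of the tested genes Cacna1c was then at 0.67, Cacna1g at 0.58, Itpr3 at 0.55, Cacna2d1 at -0.46, Gucy1a2 at -0.75, Prkg2 at 0.53, Camk2d at -0.37, Cav1 at -0.60, Cav2 at -0.43, Acta2 at 1.18, Tagln at 1.10, Synpo2 at 1.10, Cnn1 at 0.93, Aplnr at -0.63, Lrrc15 at 2.09, Lrrc75b at -1.02, Lrrc4c at -0.86, Lrrc32 at 0.58, Lrrc17 at 0.45, Pdpn at 0.53, Slc7a14 at 0.56, Ptprb at -0.60, Sox9 at -2.26, Bmp4 at 1.32, Tbx18 at -1.27 and Tcf21 at -0.62. In all other forms of the processing Lrrc55 and Kcnmb1 kept their direction. Lrrc55 was at -2.42 with a normexp offset of 0, -2.62 with the local background subtracted, -2.65 with Agilent's processed signals and -2.68 with the deposited table turned, and Kcnmb1 at -0.83, -0.89, -0.90 and -0.91. On each array alone Lrrc55 ranged from -2.28 to -1.95 and Kcnmb1 from -0.78 to -0.66, and 2 members were past 1.5-fold each time, while 1 member was past 2-fold on both. Of the 4 lists of the channel's pathway 9 genes passed. With the local background subtracted and with the deposited table, as deposited or turned, 5 passed. With median centring and no loess, limma passed 0 of them and 0 of all genes, though 3572 genes had an unadjusted p under 0.05. The cause was not tested. At an adjusted p of 0.01, 378 genes passed in place of 1701. For 26 named genes past the threshold, over 13 alternatives apart from the deposited sign, 283 values were still past it, 55 were not and 0 were reversed. Named genes that did not pass, and markers named by symbol only, are not in this count. An array alone leaves no residual degree of freedom, so it gave values and no test. No paired analysis was possible beyond this, because each ratio already pairs the 2 samples of an array. For Lrrc26 and Lrrc52 the signal over background gave no value.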

Other observations

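The following genes were chosen after their values were seen. Lrrc55 shares its name with a large group of leucine-rich repeat genes that are otherwise not BK subunits. Of 59 other genes on the arrays named Lrrc, 46 were measured, with a median of -0.016. In limma at an adjusted p of 0.05, 2 were higher (3.95% of all genes), 3 lower (4.03% of all genes) and 41 did not pass. Lrrc15, a membrane protein gene of mesenchymal cells, was lower at -1.60 ± 0.15 (adjusted p = 0.00341), with -1.50 on replicate 1 and -1.71 on replicate 2. Lrrc32, which encodes a docking receptor for latent TGF-beta, was lower at -0.56 ± 0.072 (adjusted p = 0.0190), and Lrrc17 at -0.44 ± 0.094 (adjusted p = 0.0375). Lrrc75b was higher at 1.01 ± 0.019 (adjusted p = 0.00474) and Lrrc4c, which encodes a netrin-G ligand of synapses, at 0.82 ± 0.35 (adjusted p = 0.0282). The arrays differed for Lrrc4c, whose SD was the largest of these 5 genes. Lrrc17 lost its call in 4 of 13 other forms of the processing, and Lrrc32 and Lrrc4c in 2 each.

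In the RefSeq annotation of GRCm38.p6 the protein-coding genes next to the 8 members number 16, and 12 were measured. Of these 2 were higher (3.95% of all genes), 2 lower (4.03% of all genes) and 8 did not pass in limma. Aplnr, the apelin receptor gene next to Lrrc55, was higher at 0.58 ± 0.022 (adjusted p = 0.0155), opposite in sign to Lrrc55 on both arrays. Ptprb, a phosphatase gene of endothelium next to Kcnmb4, was higher at 0.58 ± 0.26 (adjusted p = 0.0410). Pdpn, the podoplanin gene next to Lrrc38, was lower at -0.55 ± 0.086 (adjusted p = 0.0199), and Slc7a14 next to Kcnmb2 at -0.52 ± 0.21 (adjusted p = 0.0428). Slc7a14 lost its call in 5 of 13 other forms of the processing and Ptprb in 4. Kcnip1, a potassium channel-interacting protein gene that overlaps Kcnmb1, gave 0.25 ± 0.051 and did not pass (adjusted p = 0.128). Kcnmb4os2, a non-coding gene that overlaps Kcnmb4, gave -0.058 ± 0.20 and did not pass (adjusted p = 0.787).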
